A study of Mus musculus with 10 samples.

Results

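The growth factor receptors of dendritic cells (DCs) and the kinase and STAT proteins that carry their signals were examined in CD8+ DCs that had or lacked the phosphatase Ppef2. The set was chosen by gene symbol and holds 10 genes, of which 9 had a row among the 10767 genes of the normalized RNA-seq table. These were the receptors Flt3, Csf2ra, Csf2rb, Csf2rb2 and Kit, the transcription factors Stat3, Stat5a and Stat5b, and the kinase Jak2. Cish, a feedback inhibitor and target of STAT5, was not analysed here. Spleen cells positive for CD11c, MHCII and CD8 and negative for CD11b were sorted from untreated Ppef2+/+ and Ppef2-/- mice aged 8 to 13 weeks, matched for sex and age. Each of the 5 sorts gave 1 library per genotype from 3 pooled mice, so that 10 libraries were compared. The Ppef2-/- allele was a gene trap placed between exons 4 and 5 together with loxP sites around exon 5. It was made in C57BL/6N-derived embryonic stem cells, was carried in all cells of the mouse, and was crossed to C57BL/6 mice.

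Flt3 is the receptor tyrosine kinase for Flt3 ligand, the cytokine on which DC development from bone marrow progenitors depends, and it signals through STAT3 among other routes. GM-CSF binds the alpha chain Csf2ra, which pairs with the beta chain Csf2rb, and the kinase JAK2 bound to the beta chain then activates STAT5a and STAT5b. These factors switch on feedback inhibitors of the SOCS family and survival genes such as Pim1 and Bcl2l1. Kit, the receptor for stem cell factor, is best known from haematopoietic progenitors and mast cells. The study followed the survival of DCs without Ppef2, and the comparison asks whether the genes of these growth and survival signals differed between genotypes.

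Csf2rb and Csf2rb2, and Stat5a and Stat5b, are neighbouring near-copies, which decides how well 50 bp reads tell them apart. Csf2rb encodes the beta chain shared by the receptors for GM-CSF, IL-3 and IL-5, and Csf2rb2 encodes a second mouse beta chain used by the IL-3 receptor. The coding sequences of Csf2rb and Csf2rb2 were identical at 95.2% of 2628 aligned bases with a longest identical run of 242 bases, and those of Stat5a and Stat5b at 90.9% of 2341 aligned bases with a longest identical run of 324 bases. A stretch of 90 coding bases of each pair in GRCm38, the assembly also called mm10, is shown to make this visible. Each is the first gap-free stretch inside 1 exon of both genes that has the median number of differences over such stretches. Both stretches are more alike than the whole coding sequences of their pairs. Lower case letters are the same in both genes of a pair, and capitals mark bases that differ. The Csf2rb stretch lies in exon 5 on the plus strand at chr15:78338810-78338899, and that of Csf2rb2 in exon 4 on the minus strand at chr15:78294432-78294521. The Stat5a stretch lies in exon 4 on the plus strand at chr11:100861759-100861848, and that of Stat5b in exon 3 on the minus strand at chr11:100804899-100804988.
Csf2rb: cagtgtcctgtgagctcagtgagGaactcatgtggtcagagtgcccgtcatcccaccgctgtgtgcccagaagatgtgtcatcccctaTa
Csf2rb2: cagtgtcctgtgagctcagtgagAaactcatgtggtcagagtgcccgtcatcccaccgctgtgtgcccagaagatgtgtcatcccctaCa
Stat5a: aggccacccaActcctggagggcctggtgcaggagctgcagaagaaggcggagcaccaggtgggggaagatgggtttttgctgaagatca
Stat5b: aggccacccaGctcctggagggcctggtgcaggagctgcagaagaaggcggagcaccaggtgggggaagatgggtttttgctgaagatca
In these stretches the first pair differed at 2 positions and the second at 1 position. No read of 50 bases from within them covers more than 1 differing base, and some cover none. Over whole annotated transcripts, 17.1% of the 50-base windows of Csf2rb, 19.3% of Csf2rb2, 15.2% of Stat5a and 11.1% of Stat5b also occurred in another gene. The share was 0.364% for Stat3 and 0% for Flt3, Kit, Csf2ra and Jak2. How reads that fit several genes were counted is not given in the sources used here, so the split between the near-copies is uncertain. Stat5a and Stat3 lie on opposite strands and share 72 exonic bases, which the unstranded libraries cannot assign to either gene.

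The deposited values were normalized counts with the mean of each sort taken out. Where no value was at the floor of 1, the values of both genotypes in a sort gave 1 sum that was shared by all 5 sorts. The table thus holds 5 differences between genotypes per gene, the SD is the same in both genotypes, and it does not cover how far sorts lay apart. A limma fit without the sort, as in the model of the study, therefore gave standard errors that were too small, and the fit with sort as a block is given beside it. With the block, the SE of a log2 fold change was 1.53 times as large in the median gene. The value of 1 read, calculated back from the table, showed that the Ppef2-/- library of sort 1 was 2.95 times as deep as its Ppef2+/+ partner and that of sort 5 was 0.727 times as deep.

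Ppef2 itself followed the labels. Its values in sorts 1 to 5 were 243, 196, 170.4, 162 and 212 normalized counts in Ppef2+/+ libraries and 1.00, 3.04, 28.6, 36.7 and 1.00 in Ppef2-/- libraries. The values in sorts 3 and 4 of Ppef2-/- come from the removal of sort means, since 1 and 0 reads were calculated back for these libraries. The reads calculated back were 816 in the 5 Ppef2+/+ libraries and 18 in the 5 Ppef2-/- libraries. The 14 markers of cDC1, the lineage of CD8+ DCs, all had values, led by Wdfy4, Irf8 and Naaa, and their sum ranged from 81373 to 84629 in Ppef2+/+ and from 81279.9 to 84536 in Ppef2-/- libraries. Sums of markers of other cell types were far lower. They reached at most 1464 for 8 of 9 cDC2 markers with values and 2326 for 10 of 11 macrophage and monocyte markers. Markers of B, T and NK cells, neutrophils and erythroid cells and platelets had values for 2 of 8, 2 of 8, 1 of 6, 1 of 7 and 6 of 11 genes, with sums of at most 183, 97.1, 158, 21.2 and 322. Of the mast cell and basophil markers, whose cells also carry Kit, 0 of 9 had a value. As a mean, the sum of the 6 erythroid and platelet markers was 223 normalized counts in Ppef2+/+ and 279.8 in Ppef2-/- libraries, higher in 4 of 5 sorts with overlapping ranges, and Hbb-b1, named after its value was seen, had an unadjusted p of 0.041 with the block (adjusted p = 0.995). The sum of 7 of 8 markers of plasmacytoid DCs (pDCs), which was not tested as a sum, was lower in Ppef2-/- in 5 of 5 sorts, with 931 to 1026 in Ppef2+/+ and 782 to 874 in Ppef2-/- libraries. With sort means put back, a setting chosen after seeing the data, the pDC sums were 846 to 1157 and 726 to 943 and overlapped. Of the 7 pDC markers, 1 passed an adjusted p of 0.05 without the block (0.957% of all genes) and 0 with it (0.00929%). At an unadjusted p under 0.05 in limma with the block, 3 of the 7 were lower and 0 higher, where 4.29% of all genes passed in either direction. Tcf4 fell from 423 ± 19.6 (SD, n = 5) to 342 ± 19.6 normalized counts (adjusted p = 0.018 in limma, 0.71 with the block, where unadjusted p was 0.00051). The part of pDC, erythroid and platelet markers in the values of the receptor and STAT genes was not tested, and fewer cells of a type cannot be told apart from less RNA per cell in such bulk samples.

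Per length, Flt3 was the highest of the 9 genes. It reached 1348 ± 24.4 normalized counts per kb of exon (SD over 10 libraries), and only 2.04% of 10373 genes with a length were above it. Csf2ra followed with 1129 ± 81.4, Jak2 with 569.8 ± 27.4, Kit with 379.8 ± 13.2 and Csf2rb with 328 ± 13.7 normalized counts per kb. Stat3 had 248 ± 7.68, Csf2rb2 164 ± 10.7, Stat5b 102 ± 5.14 and Stat5a 87.8 ± 4.95 normalized counts per kb. The 10 libraries of each gene lay above all libraries of the next gene except for Stat5b and Stat5a, whose ranges of 91.5 to 112 and 79.6 to 95.9 overlapped. Because the sort means were removed, these ranges are narrower than the libraries themselves. The alpha chain Csf2ra was 3.38 ± 0.364 times as high per kb as the beta chain Csf2rb in Ppef2+/+ and 3.52 ± 0.344 times in Ppef2-/- libraries (n = 5 each). Csf2rb2 was at 0.49 ± 0.0248 of the level of Csf2rb in Ppef2+/+ and at 0.51 ± 0.0246 in Ppef2-/- libraries.

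**Figure D1:**
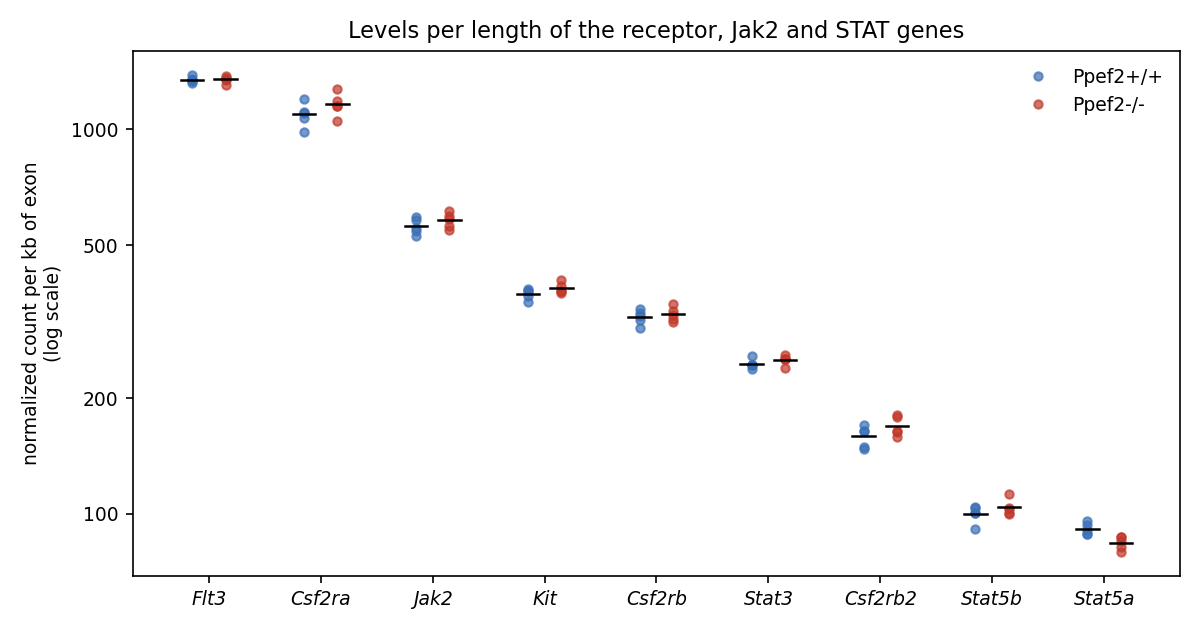
Normalized counts per kb of exon (log axis) of the 9 genes, ordered by mean level, with 1 point per library and a bar at the mean of each genotype. Flt3 and Csf2ra lie near 1000 and above, and Stat5a and Stat5b lie near 100 with overlapping ranges.

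None of the 9 genes differed between genotypes past an adjusted p of 0.05. In the limma fit without the block, 0 of 9 passed, where 103 of 10767 genes (0.957%) did, and with the block 0 of 9 passed, where 1 gene (0.00929%), Ppef2, did. At an unadjusted p under 0.05, 1 of 9, Stat5a, passed without the block (17.5% of all genes) and 0 of 9 with it (4.29% of all genes). Of the 3 genes with whole reads, 0 passed an adjusted p of 0.05 or an unadjusted p of 0.05 in a limma fit with sort means put back or in limma's voom with the block. The log2 fold change (Ppef2-/- minus Ppef2+/+) was above 0 for 8 genes and below 0 for 1 gene, with a median of 0.05, beside a median of 0.00089 over all genes. The median size of the change without its sign was 0.055 for these genes and 0.071 over all genes. The precision was high, since the median SE with the block was 0.054 for these genes against 0.105 over all genes.

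**Figure D2:**
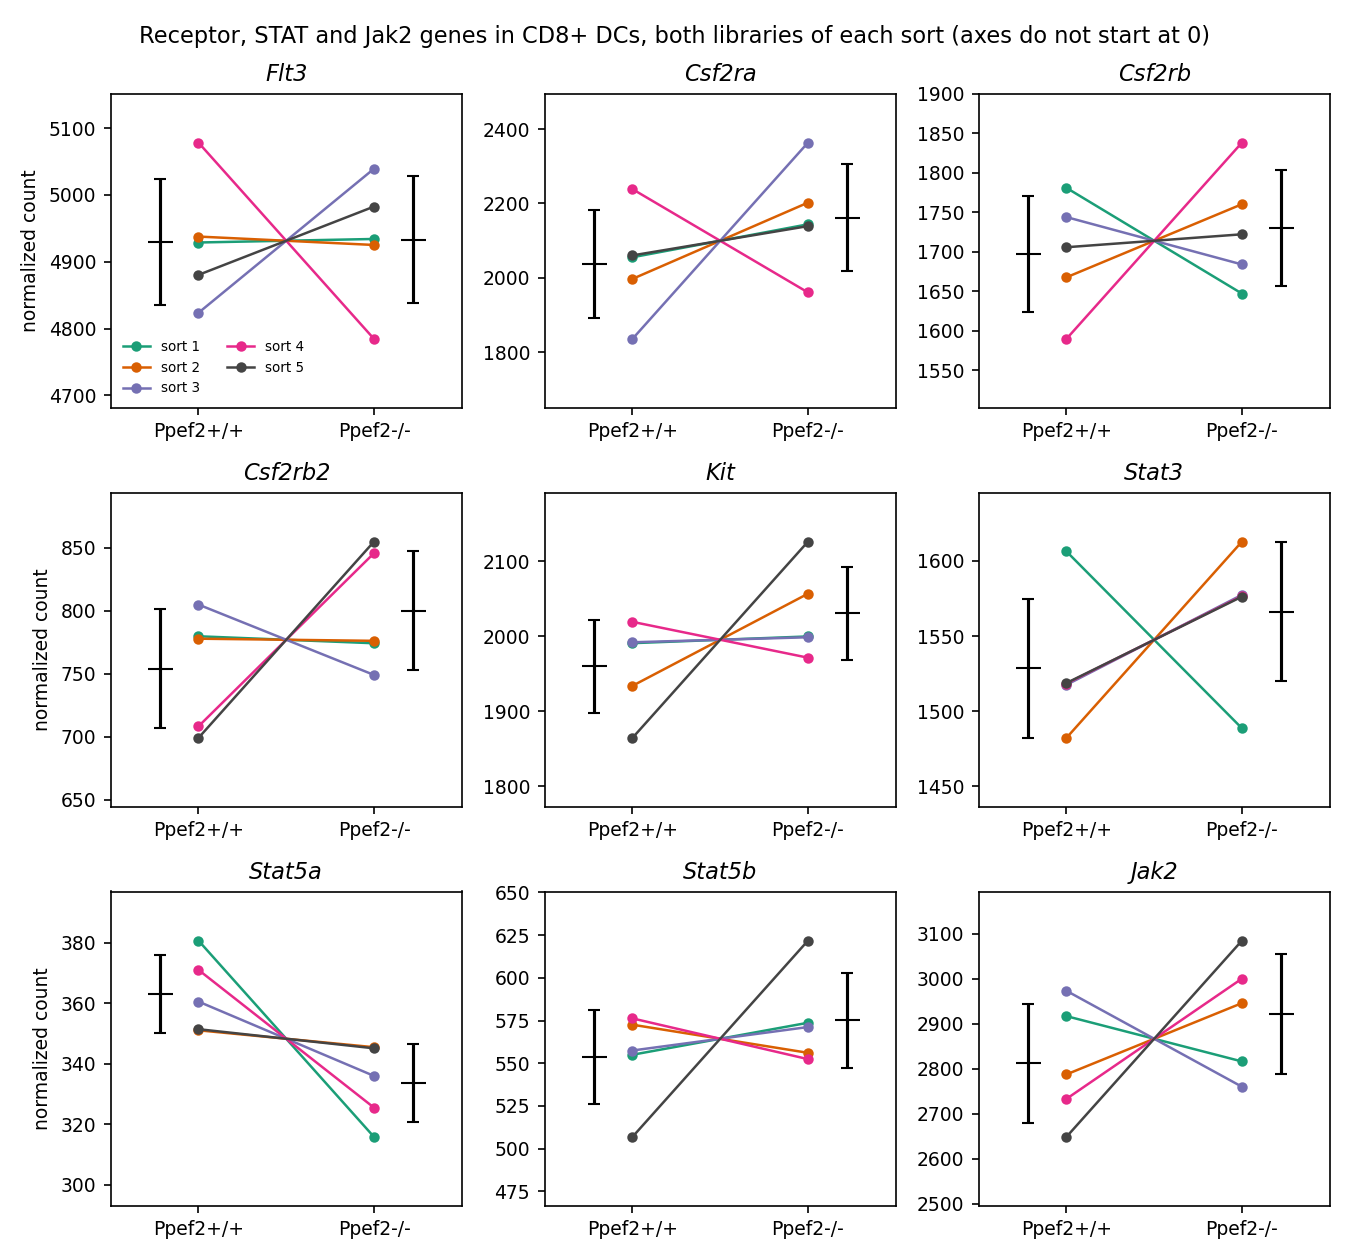
Normalized counts of the 9 genes in both libraries of each sort, joined by a line, with mean and SD of each genotype (n = 5) beside them. All lines of a gene cross at 1 point because the mean of each sort was removed, and Stat5a is the gene whose 5 lines all fall towards Ppef2-/-.

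Flt3, the receptor for the main growth factor of DCs, had nearly the same level in both genotypes. The gene lies on the minus strand at chr5:147330741-147400489. In sorts 1 to 5, the values of Flt3 were 4929, 4938, 4824, 5078 and 4880.3 normalized counts in Ppef2+/+ and 4934, 4925, 5039, 4784 and 4983 in Ppef2-/- libraries. The genotypes overlapped, and Ppef2-/- was higher in 3 of 5 sorts, with sort 4 as the largest difference and the opposite sign. The means were 4929.7 ± 94.7 and 4933 ± 94.7 normalized counts (SD, n = 5), a difference of 0.068%. The log2 fold change was 0.00098 with a SE of 0.023 without and 0.046 with the block, and the interval of 95% with the block ran from -6.35% to 6.93%. Adjusted p was 0.988 without and 0.9995 with the block. Its difference within sorts ranged from a log2 ratio of -0.09 in sort 4 to 0.06 in sort 3, the narrowest spread of the 9 genes with an SD of 0.055. Divided by the value of 1 read, the mean level of Flt3 stood for 3281 to 10619 reads per library.

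The differences over the sorts most like those of Flt3 belonged to Sun2, Gnai2 and Rhog. Their log2 ratios differed from those of Flt3 by a root mean square of 0.0223, 0.0296 and 0.0300 over 5 sorts. Gnai2 encodes a G protein subunit, Rhog a small GTPase and Sun2 a protein of the nuclear envelope. As in Flt3, sort 4 was the lowest sort of all 3 genes. A likeness over 5 values among 10767 genes is a description only.

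Kit, the receptor for stem cell factor, was 3.6% higher in the mean of Ppef2-/- libraries, which did not pass the test. Kit lies on the plus strand at chr5:75574916-75656722, at 16.6 Mb from Ppef2 on the same chromosome, and Flt3 at 55.1 Mb. The Kit values in sorts 1 to 5 were 1991, 1934, 1992, 2019 and 1864 normalized counts in Ppef2+/+ and 1999.8, 2057, 1998.7, 1971 and 2126 in Ppef2-/- libraries. Sorts 1 and 3 differed by under 0.5%, with 0.451% and 0.338%, while sort 5 differed by 14.1%. For Kit, the log2 fold change was 0.05 with a SE of 0.03 without and 0.05 with the block, the interval with the block ran from -3.68% to 11.4%, and adjusted p was 0.409 and 0.995. Without both libraries of sort 5, the log2 fold change was 0.016. Mcl1, a survival gene of the BCL2 family, Lrrk1, a kinase, and Zfp36l1, an RNA-binding protein, had the differences over sorts most like those of Kit, with a root mean square difference of 0.035, 0.041 and 0.043 over 5 sorts. In Mcl1, too, sort 5 was the highest, with a log2 ratio of 0.15, and sort 4 the lowest, with -0.02. This follows from picking genes by their likeness to Kit and is a description only.

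Csf2ra, the chain that binds GM-CSF, varied most within sorts. It lies on the minus strand at chr19:61223957-61228429. In sorts 1 to 5, its values were 2055, 1997, 1835, 2238 and 2060.1 normalized counts in Ppef2+/+ and 2144, 2202, 2363, 1961 and 2139 in Ppef2-/- libraries. Ppef2-/- was higher in 4 of 5 sorts, by 28.8% in sort 3, and the difference was -12.4% in sort 4. The means were 2037 ± 145 and 2162 ± 145 normalized counts (SD, n = 5), and the genotypes overlapped. For Csf2ra, the log2 fold change was 0.09 with a SE of 0.05 without and 0.06 with the block, the interval with the block ran from -2.97% to 16.1%, and adjusted p was 0.439 and 0.995. Without both libraries of sort 3, the log2 fold change was 0.02, and without those of sort 4 it was 0.16 with an adjusted p of 0.112. The mean level of Csf2ra stood for 1397 to 4521 reads per library, and the SD of the 5 log2 ratios, 0.199, was 4.36 times what the Poisson error of such reads alone gives.

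The beta chains overlapped between genotypes as well. Csf2rb lies on the plus strand at chr15:78325752-78353847, and its values in sorts 1 to 5 were 1781, 1667, 1744, 1589 and 1706 normalized counts in Ppef2+/+ and 1647, 1760.0, 1684, 1838 and 1722 in Ppef2-/- libraries. Ppef2-/- was higher in 3 of 5 sorts, most in sort 4 with 15.6%. The log2 fold change of Csf2rb was 0.03 with a SE of 0.04 without and 0.05 with the block, the interval with the block ran from -5.75% to 10.2%, and adjusted p was 0.748 and 0.997. Without sort 4, the direction of Csf2rb turned to a log2 fold change of -0.02.

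Csf2rb2 lies 20030 bases from Csf2rb on the opposite strand at chr15:78282507-78305721. The 5 sorts gave 779.8, 778, 805, 708 and 699 normalized counts in Ppef2+/+ and 774, 776, 749, 846 and 855 in Ppef2-/- libraries. Ppef2-/- was higher in 2 of 5 sorts only, by 19.4% in sort 4 and 22.3% in sort 5, and these sorts set the mean difference of 6.11%. The log2 fold change of Csf2rb2 was 0.09 with a SE of 0.05 without and 0.07 with the block, the interval with the block ran from -3.49% to 16.7%, and adjusted p was 0.403 and 0.995. It was 0.035 without both libraries of sort 5, 0.043 without those of sort 4 and 0.13 without those of sort 3. Since the split of reads between both beta chains is uncertain, their sum was formed as well. It was 2451 ± 109 in Ppef2+/+ and 2530.1 ± 109 in Ppef2-/- libraries, higher in 3 of 5 sorts (p = 0.5, exact two-sided test by exchanging genotypes within sorts, whose smallest p is 0.0625).

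**Figure D3:**
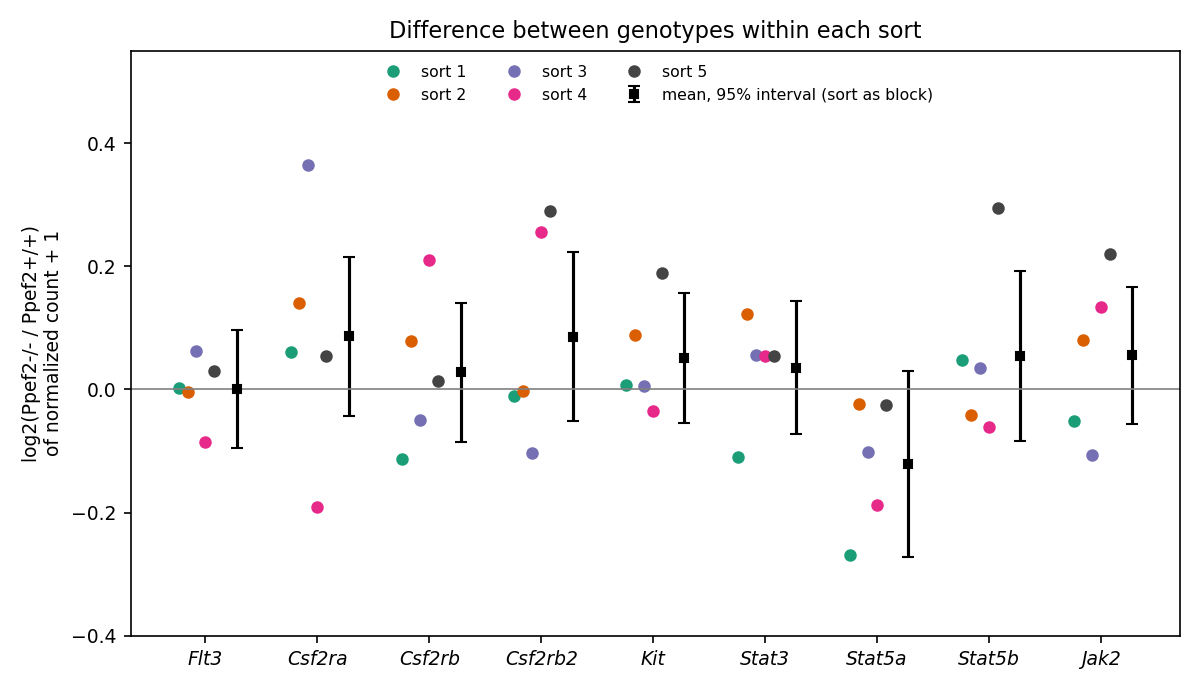
Log2 ratio of Ppef2-/- to Ppef2+/+ (normalized count + 1) of the 9 genes in each of the 5 sorts, with the mean and its 95% interval from the limma fit with sort as a block. All 9 intervals include 0, and only the 5 points of Stat5a lie on the same side of 0.

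Jak2, the kinase bound to the beta chain, lies on the plus strand at chr19:29251828-29313080. From sort 1 to sort 5, it had 2917, 2787, 2973, 2733 and 2648 normalized counts in Ppef2+/+ and 2816, 2945, 2759.6, 2999.8 and 3084 in Ppef2-/- libraries. It was higher in Ppef2-/- in sorts 2, 4 and 5 and lower in sorts 1 and 3, the same split over sorts as in Csf2rb. For Jak2, the log2 fold change was 0.06 with a SE of 0.04 without and 0.05 with the block, the interval with the block ran from -3.78% to 12.2%, and adjusted p was 0.493 and 0.995. Without both libraries of sort 5, the log2 fold change of Jak2 was 0.014, without those of sort 4 it was 0.035 and without those of sort 3 it was 0.096. Leaving out only the Ppef2+/+ or the Ppef2-/- library of sort 5 gave 0.034 and 0.035. That these are nearly equal follows from the removal of the sort mean, which makes both libraries of a sort mirror each other. The SD of its log2 ratios over sorts was 3.42 times what counting alone gives.

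Stat3, the factor through which Flt3 signals, lies on the minus strand at chr11:100885098-100939540. Sorts 1 to 5 gave 1606, 1482, 1518, 1518 and 1519 normalized counts in Ppef2+/+ and 1489, 1613, 1577, 1576.6 and 1576 in Ppef2-/- libraries. Stat3 was higher in Ppef2-/- by nearly equal amounts in sorts 3, 4 and 5, with 3.95%, 3.83% and 3.79%, while sort 1 had a difference of -7.33%. For Stat3, the log2 fold change was 0.04 with a SE of 0.03 without and 0.05 with the block, the interval with the block ran from -4.9% to 10.4%, and adjusted p was 0.581 and 0.995. Without both libraries of sort 1, the log2 fold change of Stat3 was 0.071 and without those of sort 2 it was 0.013. Leaving out 1 library of sort 1 gave 0.053 in either case, as follows from the removal of the sort mean.

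Stat5a, on the plus strand at chr11:100859351-100885169, was the only one of the 9 genes lower in the mean of Ppef2-/- libraries, and this difference did not pass the test across all genes. In order of their number, sorts 1 to 5 gave 381, 351, 361, 371 and 351 normalized counts in Ppef2+/+ and 316, 345, 336, 325 and 345 in Ppef2-/- libraries. It was lower in 5 of 5 sorts, as in 2.92% of all genes in this direction. That the genotypes did not overlap is the same observation, since both libraries of each sort add to 1 sum. The differences ranged from -17.0% in sort 1 to -1.59% in sort 2. The means were 363 ± 12.8 in Ppef2+/+ and 334 ± 12.8 in Ppef2-/- libraries (SD, n = 5), a difference of -8.09%. For Stat5a, the log2 fold change was -0.12 with a SE of 0.04 and an adjusted p of 0.139 (unadjusted 0.0088) without the block, and a SE of 0.07 and an adjusted p of 0.995 (unadjusted 0.109) with it. A change of the same size or larger was seen in 30.3% of all genes. The interval with the block ran from -17.2% to 2.07%. The exact test by exchanging genotypes within sorts gave its smallest p, 0.0625.

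Whole reads could be calculated back for Stat5a, Stat5b and Csf2rb2, whose values were all under 1000. Stat5a had 313, 252, 222, 406 and 335 reads in Ppef2+/+ and 783, 572, 330, 312 and 239 reads in Ppef2-/- libraries of sorts 1 to 5. In all, 59.4% of 3764 Stat5a reads (exact Clopper-Pearson interval of 95%, 57.8 to 61.0%, counting error only) came from the Ppef2-/- libraries, which held 60.9% of the depth. This share pools sorts of unlike depth without their pairing and is no test of the genotypes. With sort means put back, Stat5a ranged from 334 to 428 normalized counts in Ppef2+/+ and from 309 to 364 in Ppef2-/- libraries, and the genotypes overlapped. The SD of Stat5a became 40.4 in Ppef2+/+ and 19.8 in Ppef2-/- libraries, and its log2 fold change was -0.12 with a SE of 0.08 (adjusted p = 0.9997 in limma without the block). The spread of its 5 log2 ratios was 0.947 times what counting alone gives. This value concerns the spread of the 5 differences and not their mean, and the part of counting error in them was not tested.

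**Figure D4:**
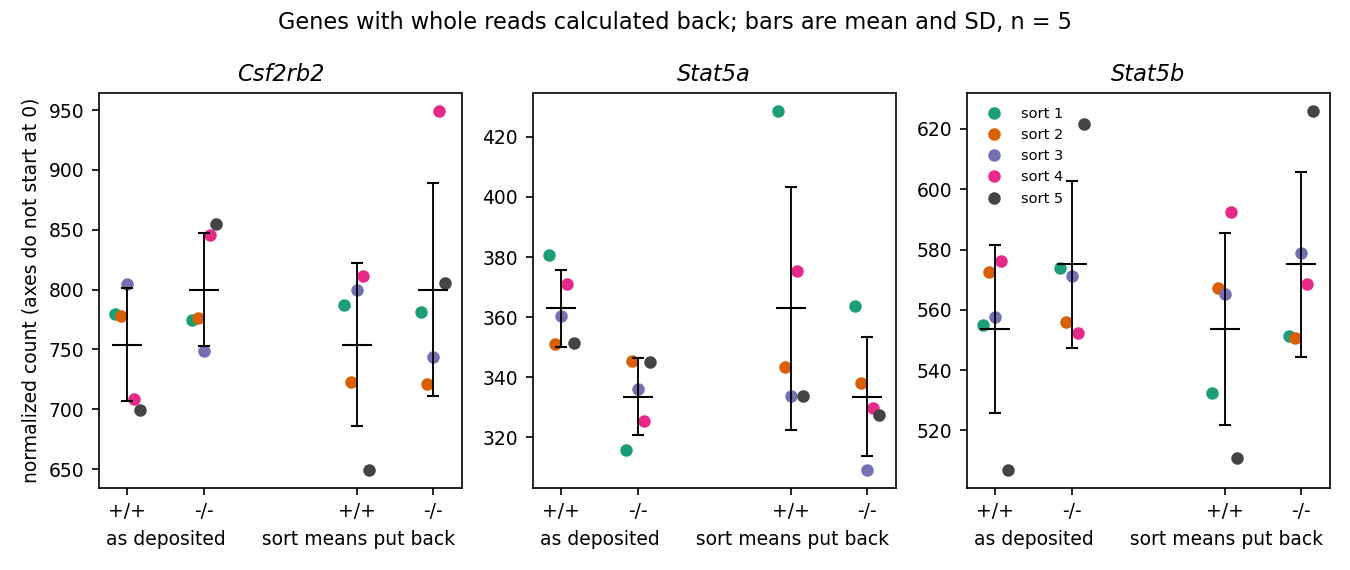
Normalized counts of Csf2rb2, Stat5a and Stat5b in each library as deposited (left in each panel) and with the sort means put back (right), with mean and SD (n = 5). The means are the same on both sides, and the 2 groups of Stat5a, which do not overlap as deposited, overlap once the sort means are put back. The differences within sorts stay the same.

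Stat5b, the near-copy of Stat5a, had a mean difference of the opposite sign. It lies on the minus strand at chr11:100780731-100850724, at 8626 bases from Stat5a, and its values in sorts 1 to 5 were 555, 573, 557, 576 and 507 normalized counts in Ppef2+/+ and 574, 556, 571, 552 and 622 in Ppef2-/- libraries. Without sort 5, in which Ppef2-/- was 22.7% higher, the log2 fold change of 0.05 became -0.0050. Its SE was 0.04 without and 0.07 with the block, the interval with the block ran from -5.61% to 14.3%, and adjusted p was 0.552 and 0.995. The ratio of Stat5a to Stat5b per kb was 0.917 ± 0.0461 in Ppef2+/+ and 0.811 ± 0.0404 in Ppef2-/- libraries (n = 5), with overlapping ranges of 0.856 to 0.968 and 0.768 to 0.867. Stat5a and Stat5b added together were at 917 ± 34.5 in Ppef2+/+ and 909 ± 34.5 in Ppef2-/- libraries, a difference of -0.867%, lower in 4 of 5 sorts and higher in sort 5 (p = 0.812, exact two-sided test by exchanging genotypes within sorts). The mean log2 ratio of this sum was -0.01 ± 0.0488 (SE over 5 sorts).

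The sorts did not move the set together. In sorts 1 and 4, 4 of 9 genes were higher in Ppef2-/-, in sorts 2 and 3 it was 5 of 9, and in sort 5 it was 8 of 9 with Stat5a as the exception. The median log2 ratio of the 9 genes was -0.01, 0.08, 0.0049, -0.03 and 0.05 in sorts 1 to 5. Over all genes it was between -0.0054 and 0.013. The spread of the log2 ratios over sorts was 1.86 times that of counting for Flt3, 1.91 for Kit, 2.45 for Csf2rb, 2.34 for Csf2rb2 and 1.61 for both Stat3 and Stat5b.

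Other genes of the same pathway were counted in 6 lists. Of the ligands, Flt3l and Csf1 had values (2 of 6), at 28.4 ± 3.71 and 12.5 ± 3.16 normalized counts in Ppef2+/+ and 26.2 ± 3.71 and 16.5 ± 3.16 in Ppef2-/- libraries (n = 5). Neither passed the test, with an adjusted p of 0.698 for Flt3l and 0.347 for Csf1 in limma. Among 21 of 28 other cytokine receptors with values, 0 rose and 0 fell, and their median log2 fold change was -0.0056. Unadjusted p was under 0.05 for 2 of them without the block (17.5% of all genes) and for 0 with it (4.29%). These were Il15ra, which presents IL-15, with 69.5 ± 8.24 and 81.9 ± 8.24 normalized counts, and Il21r, the IL-21 receptor, with 124 ± 14.7 and 144 ± 14.7, and their adjusted p was 0.231 and 0.239. The receptor chains of interferon gamma and of type I interferons, Ifngr1 and Ifnar2, had log2 fold changes of -0.06 and -0.11 (adjusted p = 0.297 for both).

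Of the 6 other JAKs and STATs reported, 0 rose and 0 fell, with a median log2 fold change of 0.0081. Unadjusted p was under 0.05 for 1 of them, Stat6, without the block (17.5% of all genes) and for 0 with it (4.29%). Stat6, the factor of IL-4 signals, was higher in 5 of 5 sorts, as were 3.26% of all genes. It had 1134 ± 22.1 and 1208 ± 22.1 normalized counts and an adjusted p of 0.102 without and 0.995 with the block. Stat2 (log2 fold change 0.03), Jak1 (-0.03) and Stat4 (-0.14) did not pass.

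Of 20 of 21 negative regulators with values, 0 rose and 0 fell, with a median log2 fold change of -0.00084. Unadjusted p was under 0.05 for 1 higher gene, Socs3, and 3 lower genes without the block, and for Socs3 alone with it. Of all genes, 17.5% passed this without and 4.29% with the block, in either direction. Socs3, the feedback inhibitor that STAT3 induces, came closest. Its values in sorts 1 to 5 were 88.8, 80.8, 72.1, 61.0 and 87.7 normalized counts in Ppef2+/+ and 98.1, 106, 115, 126 and 99.2 in Ppef2-/- libraries. Socs3 was higher in 5 of 5 sorts and therefore without overlap, as in 3.26% of all genes in this direction. The log2 fold change of Socs3 was 0.48 with a SE of 0.11 and an adjusted p of 0.056 without the block, and a SE of 0.14 and an adjusted p of 0.995 with it. It rests on 341 reads in Ppef2+/+ and 655 in Ppef2-/- libraries, and the Ppef2-/- libraries held 60.9% of the depth. The means of Socs3 were 78.1 ± 11.6 in Ppef2+/+ and 108.8 ± 11.6 normalized counts in Ppef2-/- libraries (SD, n = 5). With sort means put back, Socs3 ranged from 57.5 to 106 and from 66.9 to 171 normalized counts, and the genotypes overlapped (adjusted p = 0.9997 without the block, 0.692 in voom with the block). Within sorts, it was still higher in 5 of 5. Socs2, a target and inhibitor of STAT5, had 93.1 ± 10.8 and 77.0 ± 10.8 normalized counts (log2 fold change -0.27, adjusted p = 0.208), and Socs7 had a log2 fold change of -0.14 (adjusted p = 0.202). The ubiquitin ligase Cbl, which acts on Flt3 and Kit, was higher in 5 of 5 sorts, as were 3.26% of all genes, by a log2 fold change of only 0.04 (adjusted p = 0.402).

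**Figure D5:**
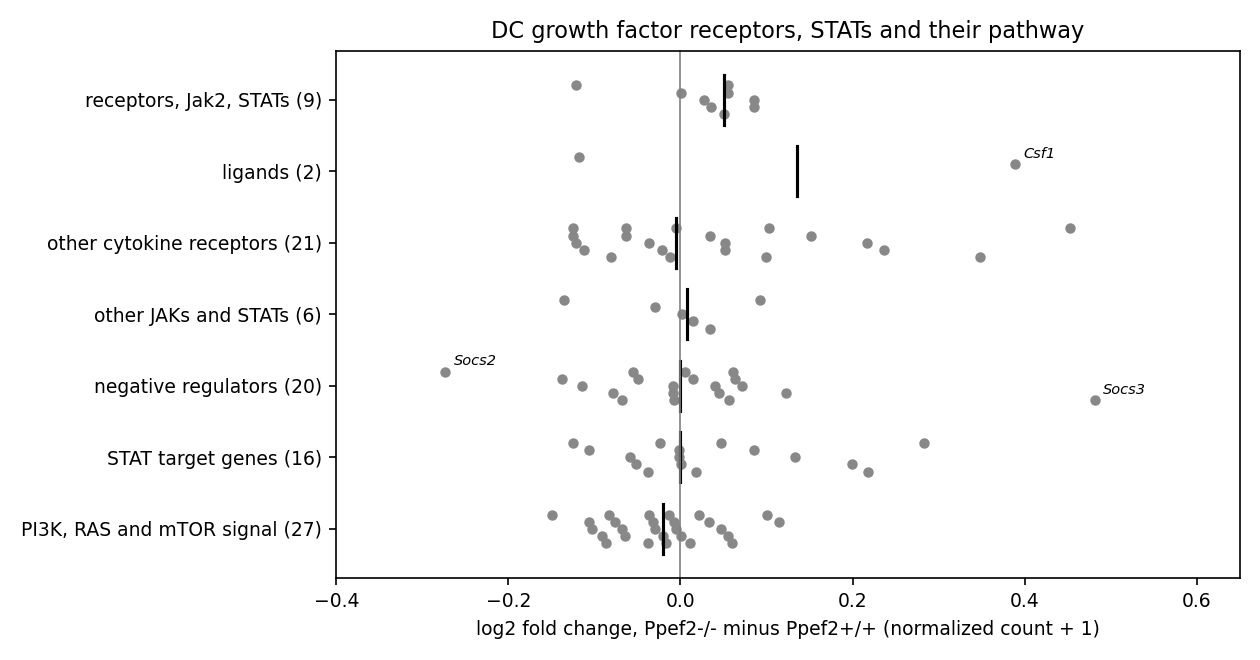
Log2 fold change (Ppef2-/- minus Ppef2+/+) of each gene in the set and in 6 pathway lists, with the number of genes with values in brackets and a bar at the median of each list. No gene shown has an adjusted p under 0.05 in the limma fit without or with the block, and Socs3, at 0.48, lies farthest from 0 of the genes named.

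Target genes of STATs were split evenly by direction. Of 16 of 17 genes with values, 0 rose and 0 fell, 8 had a log2 fold change above 0 and 8 below, and the median was -0.0004. Unadjusted p was under 0.05 for 3 higher genes and 1 lower gene without the block and for 0 with it. Of all genes, 17.5% passed this without and 4.29% with the block, in either direction. The kinase Pim2 had 57.6 ± 5.18 and 67.2 ± 5.18 normalized counts (adjusted p = 0.212), and the cell cycle inhibitor Cdkn1a 137 ± 12.1 and 157 ± 12.1 (adjusted p = 0.179). Bcl6, a repressor that STAT5 is known to lower, had 1312.5 ± 59.1 and 1219.6 ± 59.1 (adjusted p = 0.193), and Myc had a log2 fold change of -0.12 (adjusted p = 0.486). Of 27 of 28 genes of PI3K, RAS and mTOR signals, 0 rose and 0 fell, 18 had a log2 fold change below 0, and the median was -0.02. Here unadjusted p was under 0.05 for 2 higher and 4 lower genes without the block and for 0 with it. The shares over all genes were again 17.5% and 4.29%. The kinase Akt1 was lower in 5 of 5 sorts, as were 2.92% of all genes. It had 1191 ± 29.2 and 1109 ± 29.2 normalized counts, with an adjusted p of 0.102 without and 0.995 with the block. The exchange factor Sos2 had a log2 fold change of -0.15 (adjusted p = 0.139), and the kinases Pik3cd and Map2k1 had 0.101 and 0.11 (adjusted p = 0.188 and 0.208). In the limma fit of the deposited values with the block, the adjusted p was 0.995 or above for each gene named from the 6 lists.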

How the data were processed

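Messenger RNA was sequenced in 10 libraries of sorted CD8+ DCs, assigned to genotype and sort by their labels. Single-end reads of 50 bp were aligned by the authors to mm10 (HISAT per the study's methods, TopHat2 2.0.3 per the submitters' processing notes), counted them per RefSeq gene in Partek 6.6, normalized with DESeq2, set values below 1 to 1 and removed genes with a mean under 10 in both genotypes. The deposited unit is thus a signal of normalized counts with a floor.

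Values were compared with limma 3.58.1 (eBayes with a trend) in R 4.3.3 on log2(normalized count + 1) (two-sided tests, Benjamini-Hochberg adjusted across all 10767 genes). Fold changes are on this scale. The sort number in the labels pairs the libraries, and over the 10721 genes free of floor values, a sort's libraries deviated from the genotype means as mirror images (r = -1.0000 for all 5 sorts). Mice of each library were pooled, so the sort is the unit of comparison. The eBayes step of limma drew the error of each gene towards a trend over all genes. Its SEs, intervals and p-values thus do not rest on the 5 differences of a gene alone. The SD of the 5 log2 ratios was 0.199 for Csf2ra and 0.055 for Flt3, while their SEs with the block were 0.062 and 0.046. Whole reads were calculated back, for 9606 of 9627 genes with values under 1000, as the only set of whole numbers that, scaled by what 1 read is worth and shifted per sort, gives the deposited values. In the fits with sort means put back and in voom, p was adjusted across these 9606 genes. The scripts were tested on simulated data. Sequences, gene positions and exon lengths came from GENCODE transcripts of GRCm38 (release M21). The members, the pathway and marker lists, and the rule for named genes were chosen with earlier results of these data known. The rule takes every member, each listed gene past an adjusted p of 0.05 and, besides these, the 2 rises and 2 falls of each list with the smallest p, the 3 highest markers of each list, and the 3 genes most like Flt3 and Kit. Of the pathway lists, 1 gene is not reported here, and counts over a list are over the genes reported.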

Additional observations from a re-analysis of the deposited data

How the results depend on the processing

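Under 28 alternatives that gave a value for all 9 genes and 2 on reads calculated back that gave one for Csf2rb2, Stat5a and Stat5b, 0 genes of the set passed an adjusted p of 0.05, and the lowest adjusted p of a member was 0.106, for Stat5a. Of 258 values of single genes, 245 kept their direction and 13 turned it. The direction of Flt3 turned with libraries rescaled to their median ratio (-0.00034), without 1 library of sort 3 or sort 5 (over all libraries left out in turn, it ranged from -0.0068 to 0.012), and without both libraries of sort 3 (-0.015) or sort 5 (-0.0063), with and without the sort as a replicate block. Csf2rb turned without both libraries of sort 4 (-0.018 with and without the replicate block) and Stat5b without those of sort 5 (-0.0050, with and without the replicate block). The log2 fold change of Stat5a ranged from -0.15 to -0.085.

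The number of genes past the threshold was 103. It was 1 with the replicate block, 193 without a trend and 252 without moderation. Over only the 9606 genes with whole reads, it was 1 with sort means put back and 2 in voom with the replicate block. With 1 library left out, the number over all 10767 genes ranged from 1 to 23. It was 1 without either library of sort 2 or the Ppef2+/+ library of sort 3. It ranged from 0 to 192 with both libraries of a sort left out (39 without sort 1), and from 1 to 4 with this and the block. The replicate block changed no call of the 9 genes. For genes with a value of 1000 or more, whole reads were not calculated back, and values with sort means put back were not analysed here. Reads given for such genes are their mean level divided by the value of 1 read.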
